A study of Homo sapiens with 12 samples.

Results

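The 10 genes described here encode the sensors and regulators of the unfolded protein response (UPR): ERN1, EIF2AK3, ATF6, ATF6B, XBP1, CREB3L2, CREB3L3, PPP1R15A, PPP1R15B and WFS1. They were chosen by symbol from the names of the rows in the gene count table, which held all 10 among its 16389 genes. The study examined how hyperglycaemia and valproic acid (VPA), a histone deacetylase inhibitor, change gene expression in HepG2, an established human liver cancer cell line. RNA with poly(A) tails was sequenced in 12 libraries, 3 for each of 4 groups. Cells from ATCC at passage 9 were kept for 48 h in medium with 5.5 mM glucose (LG) or 20 mM glucose (HG). In the groups LGV and HGV, cells in the same media then received 1 mM VPA for another 12 h, while LG and HG stayed untreated. All groups came from a single cell line. The labels do not say whether the 3 replicates were separate cultures, so p-values measure the spread between these libraries, which may be technical. No sequencing batch was named.

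Secretory and membrane proteins fold in the endoplasmic reticulum (ER), and liver cells, which export most plasma proteins, depend on this compartment heavily. When unfolded proteins build up, 3 kinds of sensor in the ER membrane respond. IRE1 (encoded by ERN1) splices the mRNA of XBP1 and so allows the active transcription factor to be made, PERK (EIF2AK3) phosphorylates the translation factor eIF2 and slows protein synthesis, and ATF6 is cut in the Golgi to release a transcription factor. XBP1 and ATF6 switch on chaperone and ER degradation genes, many through the ER stress response element (ERSE), in which a CCAAT box and CCACG stand a fixed distance apart. Counts per gene show transcript amounts only and hold no information on splicing of XBP1, phosphorylation or cleavage. In such bulk RNA, less RNA per cell and fewer cells of a kind cannot be told apart.

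Between 29798442 and 45572694 reads per library were counted on genes, and each of the 10 genes had between 739 and 24053 reads in every library. The common coefficient of biological variation was 0.168 in LG, 0.115 in HG, 0.126 in LGV and 0.142 in HGV. All 9 hepatocyte markers examined were present, led by ALB with 18945.7 to 29437.2 CPM (counts scaled to library size). Of 8 markers of leukocytes, endothelium and fibroblasts, 4 (PTPRC, CD68, PECAM1 and COL1A2) were not in the table, CDH5 and COL1A1 reached at most 1.5 and 2.64 CPM, ACTA2 had 10.5 to 38.8 CPM and LYZ 908.4 to 1545.3 CPM. CPM were scaled with TMM factors, which set the median log2 fold change of all genes between -0.01 and 0.02 in the 4 comparisons of groups. With library sizes alone this median became 0.11 for HG against LG, 0.15 for HGV against HG, 0.16 for LGV against LG and 0.10 for HGV against LGV. The share of called genes that were higher then moved from 48.6% to 62.6%, from 56.1% to 68.1%, from 52.1% to 69.7% and from 52.2% to 62.0%, and with upper quartile factors it was 64.3% for HG against LG and 63.5% for HGV against LGV.

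Promoter windows from RefSeq (GRCh38.p14), from 250 bases before to 50 bases after each annotated start, were available for all 10 genes and searched on both strands for elements that UPR factors are known to bind. The ERSE was written as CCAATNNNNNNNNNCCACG, the related ERSE-II as ATTGGNCCACG, the UPR element as TGACGTGG, the cAMP response element (CRE) as TGACGTCA and the ATF4 element as TGATGNAAT. XBP1 and CREB3L2 had 2 windows each, so shares of windows are not shares of genes. An ERSE was found in a window of XBP1 but not in its other window, and in no window of another member. It was held by 27 of the 35116 windows searched (0.0769%). A CRE, held by 1.85% of all windows, was found in the window of PPP1R15A and in a window of CREB3L2, but not in the other window of CREB3L2. ERSE-II (0.0541% of all windows), the UPR element (0.729%) and the ATF4 element (0.991%) were not among the letters of any member's window. The short parts were common, CCACG in 5 members and 38.1% of all windows and CCAAT in 8 members and 34.6%. CCACG overlaps the ERSE, the ERSE-II and the UPR element, and CCAAT the first pair of these. The 3 windows with a whole element are shown because they set XBP1, CREB3L2 and PPP1R15A apart in sequence. Each line gives 100 bases of the gene's strand, 5′ to 3′, with the element in capitals (CCAAT and CCACG of the ERSE for XBP1, the CRE for the other two). The XBP1 and PPP1R15A stretches end at the base before the start, and that of CREB3L2 begins at position -200.
XBP1, chr22:28800570-28800669, minus strand: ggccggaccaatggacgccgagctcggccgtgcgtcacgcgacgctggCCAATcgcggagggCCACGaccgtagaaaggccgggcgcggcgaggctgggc
CREB3L2, chr7:138002187-138002286, minus strand: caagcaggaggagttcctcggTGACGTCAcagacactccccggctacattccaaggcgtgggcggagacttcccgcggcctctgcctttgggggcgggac
PPP1R15A, chr19:48872321-48872420, plus strand: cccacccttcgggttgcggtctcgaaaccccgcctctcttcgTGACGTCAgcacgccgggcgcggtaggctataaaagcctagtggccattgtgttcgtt

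The ERSE of XBP1 lay at -52 to -34 from the annotated start of the window that held it. The same element was found in 6 of the 20 genes with a window on a list of 23 UPR effector targets, which are the chaperone, folding and ER degradation genes that the pathway is known to switch on. Their elements are shown for comparison with that of XBP1, each read 5′ to 3′ on the strand named, with CCAAT and CCACG in capitals and the spacer of 9 bases in lower case.
HSPA5, chr9:125241391-125241409, minus strand: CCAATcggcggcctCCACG
HSP90B1, chr12:103930216-103930234, plus strand: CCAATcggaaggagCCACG
HSP90B1, chr12:103930321-103930339, minus strand: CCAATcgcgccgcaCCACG
CALR, chr19:12938384-12938402, minus strand: CCAATgatggtcgaCCACG
CANX, chr5:179698778-179698796, plus strand: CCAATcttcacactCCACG
PDIA6, chr2:10812853-10812871, minus strand: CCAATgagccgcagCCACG
CRELD2, chr22:49918554-49918572, minus strand: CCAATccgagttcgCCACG

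Most of the sensor and regulator transcripts were lower in high glucose, and XBP1 and CREB3L3 were the exceptions. At an FDR of 0.05 or less (edgeR's quasi-likelihood F test across all genes), 8 of the 10 genes differed between HG and LG, against 24.7% of the 15452 genes tested. Of the 10, 7 fell (12.7% of all genes were called lower) and 1, CREB3L3, rose (12.0% were called higher). The median log2 fold change was -0.73 over the 10 genes and 0.01 over all genes. The HG and LG libraries did not overlap for 9 of the 10, compared with 41.2% of all genes. Among the markers, APOA1 (0.48) and FGB (0.88) of 9 for hepatocytes and ACTA2 of other cell types (from 18.7 to 37.2 CPM) were called higher in HG. The summed levels overlapped, with 52990.7 to 60874.6 CPM in HG and 52004.2 to 58703.8 CPM in LG for hepatocytes and 1273.2 to 1424.8 against 1086.7 to 1442.0 CPM for the other cell types, and the markers' part in the HG results was not tested. Among VPA-treated cells, HGV against LGV gave 6 of 10 genes called, against 40.7% of the 16208 genes tested. Here 5 fell (19.5% of all genes) and 1 rose (21.2%), the median was -0.39 for the members and 0.01 for all genes, and 8 members did not overlap, compared with 51.4% of all genes. Of the hepatocyte markers 4 of 9 and of the other cell type markers 4 of 4 were higher in HGV than in LGV, with summed levels of 46987.9 to 61619.7 against 40049.9 to 40974.6 CPM and of 1454.7 to 1570.7 against 920.6 to 1074.3 CPM. Low levels were involved for CDH5 (from 0.359 to 1.29 CPM) and COL1A1 (from 1.09 to 1.97 CPM). Most of the latter sum was LYZ (from 965.1 to 1490.7 CPM). The markers' part in the HGV against LGV results was not tested.

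VPA moved the genes in different directions. In high glucose (HGV against HG), 5 of 10 were called, close to the 46.1% of 16188 genes tested. CREB3L2, WFS1, CREB3L3 and ERN1 rose (25.8% of all genes were called higher) and XBP1 fell (20.2% lower). The groups did not overlap for 7 members and for 54.6% of all genes. Of 9 hepatocyte markers, TTR was called higher and FGB and HNF4A lower in HGV than in HG, with overlapping sums of 46987.9 to 61619.7 and 52990.7 to 60874.6 CPM. Of the other cell type markers, CDH5 (from 0.41 to 1.29 CPM) and COL1A1 (from 0.339 to 1.97 CPM) were called higher and ACTA2 (from 37.2 to 21.9 CPM) lower, with sums of 1454.7 to 1570.7 and 1273.2 to 1424.8 CPM, and the markers' part in the HGV results was not tested. In low glucose (LGV against LG), 5 of 10 were called, against 41.6% of 15944 genes. CREB3L3, ATF6 and CREB3L2 rose (21.7% of all genes) and XBP1 and WFS1 fell (19.9%), and the groups did not overlap for 4 members and 50.5% of all genes. With TMM factors the member count thus lay near the share of all genes in both VPA comparisons, but it depended on the scaling. With upper quartile factors or library sizes, 6 members were called higher and 1 lower in HGV against HG. Of the 16188 genes, 7502 and 7606 were called with these settings. With library sizes, 6 members were called higher and 2 lower in LGV against LG, where 6458 of 15944 genes were called. Of the 9 hepatocyte markers 6 were lower in LGV than in LG, where their summed level was 40049.9 to 40974.6 against 52004.2 to 58703.8 CPM, and their part in the LGV results was not tested. The sum of the 4 other cell type markers was 920.6 to 1074.3 CPM in LGV and 1086.7 to 1442.0 CPM in LG, almost all of it LYZ. Within it COL1A1 was called higher (from 0.226 to 1.09 CPM) and ACTA2 lower (from 18.7 to 10.9 CPM) in LGV. HG against LG shares the HG libraries with HGV against HG and the LG libraries with LGV against LG, so that the folds of these comparisons are not independent of each other.

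**Figure D1:**
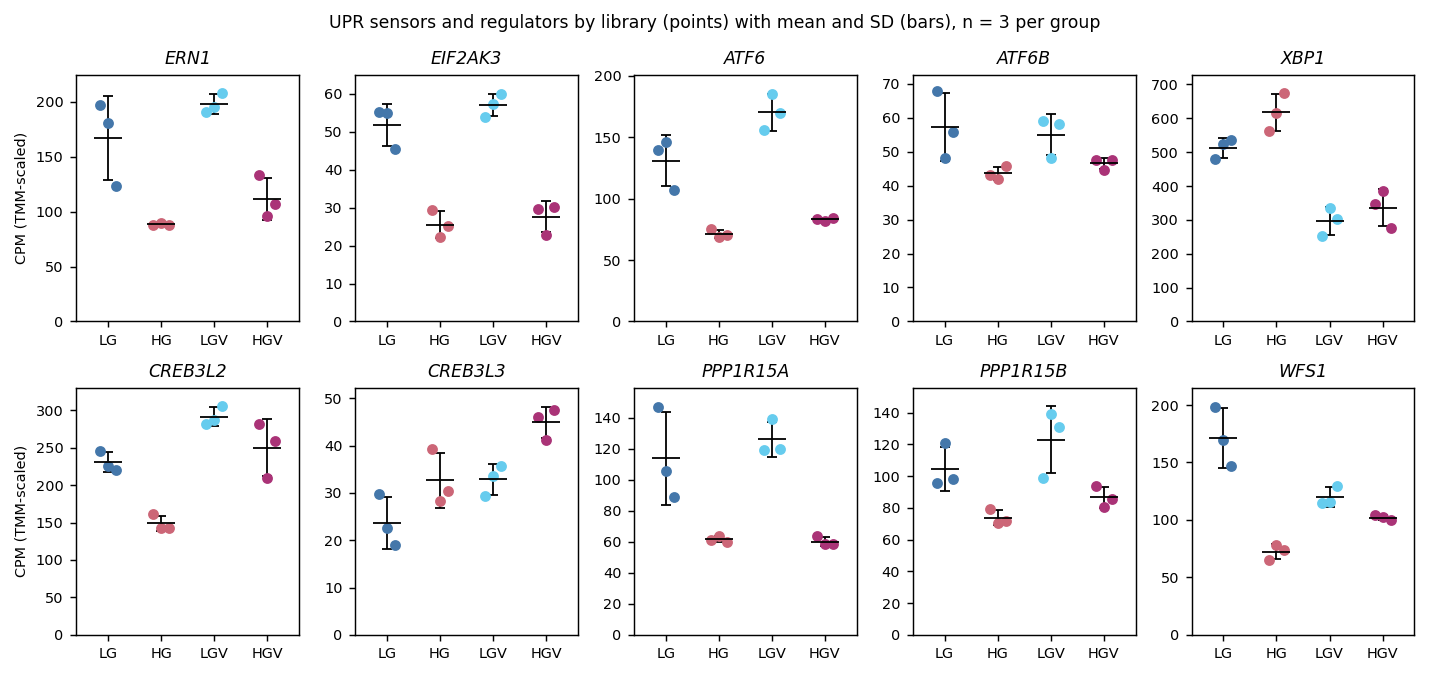
TMM-scaled CPM (y axis, from 0, with its own range for each gene) of the 10 genes in the LG, HG, LGV and HGV groups. Points are the 3 libraries of a group and bars the mean with SD. HG points lie below LG points for 8 genes and above them for XBP1, while for CREB3L3 the groups overlap, and XBP1 is lower in LGV and HGV than in either untreated group.

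ERN1 (ENSG00000178607, chromosome 17 of GRCh37, 62116440 to 62208179) encodes IRE1, the sensor that is both a kinase and an endoribonuclease. It had 197.4, 180.6 and 123.8 CPM in LG and 87.9, 89.9 and 88.3 CPM in HG. With VPA it had 190.8, 195.1 and 208.2 CPM in LGV and 133.0, 95.7 and 106.7 CPM in HGV. Every HG library was below every LG library, LG replicate 3 was the lowest of its group, and the LG range lay across the gap between LGV and HGV. ERN1 fell 1.85-fold in HG (log2 fold change -0.89, SE 0.15, FDR 0.000281) and 1.79-fold in HGV against LGV (-0.84, SE 0.13, FDR 0.0001). It rose with VPA in high glucose (0.33, SE 0.12, FDR 0.041), and this call was lost with DESeq2's size factors (FDR 0.0647), DESeq2's Wald test (0.0642), a joint fit of the 12 libraries (0.074) or without HG replicate 1 (0.102), 2 (0.0883) or 3 (0.11) or HGV replicate 1 (0.2) or 3 (0.0581). In low glucose the change with VPA was 0.26 (95% interval -0.06 to 0.58, FDR 0.191), and with library sizes alone it was called (0.43, FDR 0.0244). With any single library left out, LG replicate 3 included, the fall in HG stayed between -1.06 and -0.74 with an FDR of at most 0.00912.

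EIF2AK3 (ENSG00000172071, chromosome 2, 88856259 to 88991036) encodes PERK, the ER kinase of eIF2. It had 55.2, 55.0 and 45.5 CPM in LG, 29.3, 22.2 and 25.1 CPM in HG, 54.0, 57.4 and 59.9 CPM in LGV and 29.7, 22.8 and 30.1 CPM in HGV. The libraries fell into a high set of LG and LGV and a low set of HG and HGV, with no overlap between the sets and overlap within each. The fall was 2.01-fold without VPA (-1.0, SE 0.14, FDR 7.31e-05) and 2.1-fold with it (-1.07, SE 0.13, FDR 9.46e-06). VPA gave differences of 0.11 in high glucose (95% interval -0.20 to 0.42, FDR 0.556) and 0.15 in low glucose (-0.10 to 0.40, FDR 0.334), the latter being called with library sizes alone (0.31, FDR 0.0315).

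ATF6 (ENSG00000118217, chromosome 1, 161736088 to 161947364) encodes the sensor that is itself a membrane-bound transcription factor. It had 139.9, 145.8 and 106.9 CPM in LG and 75.1, 69.1 and 70.1 CPM in HG. With VPA it had 155.7, 185.6 and 169.6 CPM in LGV and 83.2, 82.2 and 83.9 CPM in HGV. No pair of neighbouring groups overlapped in the order LGV, LG, HGV and HG. ATF6 fell 1.8-fold in HG (-0.85, SE 0.13, FDR 0.000162) and 2.08-fold in HGV against LGV (-1.05, SE 0.12, FDR 4e-06). In low glucose it rose with VPA (0.39, SE 0.13, FDR 0.0287), a call lost without LG replicate 1 (FDR 0.0552) or 3 (0.0938) or LGV replicate 2 (0.114) or 3 (0.0672). In high glucose the difference was 0.22 (95% interval 0.01 to 0.42, FDR 0.0775), and it was called with upper quartile factors (0.28, FDR 0.034) or library sizes (0.34, FDR 0.0102).

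ATF6B (ENSG00000213676, chromosome 6, 32083041 to 32096030) encodes the close relative of ATF6. It had 67.9, 48.1 and 55.9 CPM in LG, 43.1, 42.0 and 45.7 CPM in HG, 59.0, 48.0 and 58.1 CPM in LGV and 47.4, 44.6 and 47.5 CPM in HGV. All HG and HGV libraries lay below all LG and LGV libraries, by less than for ATF6. The difference missed the threshold in both media, with -0.37 for HG against LG (95% interval -0.66 to -0.08, FDR 0.0567) and -0.26 for HGV against LGV (-0.52 to -0.01, FDR 0.0916). The HG call was gained with edgeR's likelihood ratio test (FDR 0.0466), with a joint fit of the 12 libraries (0.0446) and without LG replicate 2 (0.0237). With VPA the differences were 0.09 in high glucose (-0.13 to 0.31, FDR 0.485) and -0.04 in low glucose (-0.34 to 0.25, FDR 0.825). Its exons share 71 bases (1.956% of their length) with those of TNXB on the same strand, where reads cannot be told apart. A further overlap on that strand, of 289 bases (7.964%), is with a noncoding gene that was not in the table.

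XBP1 (ENSG00000100219, chromosome 22, 29190543 to 29196585) encodes the transcription factor whose mRNA IRE1 splices. It had 479.0, 523.5 and 536.0 CPM in LG and 562.6, 616.9 and 673.5 CPM in HG. With VPA it had 253.4, 336.0 and 302.8 CPM in LGV and 346.4, 384.3 and 276.9 CPM in HGV. Every HG library was above every LG library, and all VPA-treated libraries were below all untreated ones. XBP1 fell with VPA by 0.88 on the log2 scale in high glucose (1.84-fold, SE 0.13, FDR 0.000147) and by 0.78 in low glucose (1.71-fold, SE 0.13, FDR 0.000279). It was the only member called lower with VPA in both media, and both calls held under all 15 alternatives run for each. For glucose the difference was 0.29 (95% interval 0.04 to 0.55, FDR 0.087) without VPA and 0.16 (-0.15 to 0.46, FDR 0.408) with it. The former was called as a rise with upper quartile factors (0.38, FDR 0.024), library sizes (0.39, FDR 0.0206) or without LG replicate 3 (0.33, FDR 0.042). Under none of the 15 alternatives was XBP1 lower in HG than in LG.

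The 6 effector targets whose promoter holds the element also found for XBP1 fell in HG. So did all 22 effector targets in the table, where 12.7% of all genes were called lower. HSPA5, which encodes the main ER chaperone BiP, fell from 5208.6 to 1227.8 CPM (-2.06, SE 0.14, FDR 1.26e-08) and HSP90B1, an ER chaperone, from 4343.4 to 1455.2 CPM (-1.56, SE 0.14, FDR 4.68e-07). The log2 fold changes were -2.25 for the calcium-binding chaperone CALR, -1.11 for its relative CANX, -1.26 for the disulfide isomerase PDIA6 and -2.24 for CRELD2, all called. With VPA in high glucose, where XBP1 fell, CANX was called lower (-0.33, SE 0.12, FDR 0.0328) and the other 5 were not called, with HSPA5 at -0.17 (95% interval -0.43 to 0.09, FDR 0.275). Of all genes, 46.1% were called in that comparison. In low glucose, where XBP1 also fell with VPA, these 6 genes were not called, against 41.6% of all genes. There HSPA5 was at 0.04 (95% interval -0.30 to 0.39, FDR 0.848), CANX at -0.07 (FDR 0.728) and CRELD2 at -0.38 (FDR 0.0634). These 6 genes were named for the element after their values had been seen.

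CREB3L2 (ENSG00000182158, chromosome 7, 137559725 to 137686832) encodes an ER-bound transcription factor of the OASIS family, cut and released like ATF6. It had 245.8, 226.1 and 220.2 CPM in LG and 160.9, 143.1 and 143.0 CPM in HG. With VPA it had 281.3, 287.1 and 305.9 CPM in LGV and 282.3, 209.0 and 259.5 CPM in HGV. HG stood below the other 3 groups, and HGV overlapped both LG and LGV. CREB3L2 fell 1.53-fold in HG (-0.61, SE 0.12, FDR 0.00105). It rose 1.68-fold with VPA in high glucose (0.75, SE 0.12, FDR 0.000306) and 1.27-fold in low glucose (0.35, SE 0.11, FDR 0.023), the latter call being lost without LG replicate 2 (FDR 0.054) or LGV replicate 2 (0.0534) or 3 (0.0955). HGV differed from LGV by -0.24 (95% interval -0.52 to 0.04, FDR 0.162). The difference between the VPA effects in the 2 media was 0.41 (0.06 to 0.76, unadjusted p = 0.0236 and FDR 0.344 in edgeR's fit across genes).

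CREB3L3 (ENSG00000060566, chromosome 19, 4153628 to 4173051) encodes CREB-H, the liver member of this family, known for acute phase and lipid genes. It had 29.8, 22.6 and 18.9 CPM in LG, 39.3, 28.4 and 30.4 CPM in HG, 29.3, 33.7 and 35.7 CPM in LGV and 46.0, 41.3 and 47.6 CPM in HGV. HGV was above all other groups, while LG, HG and LGV overlapped. It rose in all 4 comparisons of groups: by 0.49 in HG against LG (SE 0.17, FDR 0.0413), 0.43 in HGV against LGV (SE 0.12, FDR 0.00945), 0.46 in HGV against HG (SE 0.13, FDR 0.0137) and 0.49 in LGV against LG (SE 0.16, FDR 0.0232). The HGV against LGV call held under all 15 alternatives, and the other 3 calls depended on single libraries. That of HG against LG was lost with a filter of 1 CPM (FDR 0.053) and without LG replicate 2 (0.0885) or 3 (0.114) or HG replicate 1 (0.186) or 3 (0.0694). That of HGV against HG was lost without HG replicate 2 (0.0673) or 3 (0.0651) or HGV replicate 3 (0.051), and that of LGV against LG without LG replicate 3 (0.0749) or LGV replicate 2 (0.0655) or 3 (0.0964).

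PPP1R15A (ENSG00000087074, chromosome 19, 49375469 to 49379316) encodes GADD34, the stress-induced subunit that guides protein phosphatase 1 to eIF2 and so reverses the action of PERK. It had 147.1, 105.8 and 88.6 CPM in LG and 61.2, 63.6 and 59.7 CPM in HG. With VPA it had 119.1, 138.9 and 119.7 CPM in LGV and 63.4, 58.2 and 58.3 CPM in HGV. The low and the high glucose libraries formed separate sets, and the spread was widest in LG. PPP1R15A fell 1.82-fold in HG (-0.86, SE 0.15, FDR 0.000519) and 2.12-fold in HGV against LGV (-1.09, SE 0.12, FDR 3.1e-06). The differences with VPA were -0.04 in high glucose (95% interval -0.25 to 0.18, FDR 0.787) and 0.16 in low glucose (-0.18 to 0.50, FDR 0.454).

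PPP1R15B (ENSG00000158615, chromosome 1, 204365620 to 204381015) encodes CReP, the constitutive counterpart of GADD34. It had 95.5, 120.7 and 97.9 CPM in LG, 79.4, 70.3 and 72.0 CPM in HG, 98.8, 139.5 and 130.9 CPM in LGV and 93.8, 80.5 and 85.8 CPM in HGV. High glucose libraries lay below low glucose libraries, with and without VPA. It fell 1.4-fold in HG (-0.48, SE 0.13, FDR 0.00999) and 1.44-fold in HGV against LGV (-0.52, SE 0.14, FDR 0.00497). The HG call was lost without LG replicate 2 (FDR 0.0622) or HG replicate 3 (0.0817). With VPA the differences were 0.23 in high glucose (95% interval 0.00 to 0.46, FDR 0.089) and 0.24 in low glucose (-0.06 to 0.55, FDR 0.194). These were called with library sizes alone (0.35, FDR 0.0168 and 0.40, FDR 0.0187), the former also with upper quartile factors (0.29, FDR 0.0384) and without HGV replicate 2 (0.28, FDR 0.0341), the latter also without LGV replicate 1 (0.39, FDR 0.0331).

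WFS1 (ENSG00000109501, chromosome 4, 6271576 to 6304992) encodes wolframin, an ER membrane protein that takes part in ER calcium balance, restrains ATF6 signalling and is mutated in a syndrome with diabetes. It had 198.1, 169.3 and 146.5 CPM in LG and 65.0, 78.1 and 73.9 CPM in HG. With VPA it had 114.4, 115.8 and 129.6 CPM in LGV and 104.3, 102.1 and 99.5 CPM in HGV. The 4 groups did not overlap, and both VPA-treated groups lay between the untreated ones. WFS1 fell 2.33-fold in HG (-1.22, SE 0.13, FDR 5.01e-06), the largest change of a member in this comparison, and HGV differed from LGV by -0.25 (95% interval -0.49 to -0.01, FDR 0.0867). With VPA it rose 1.41-fold in high glucose (0.49, SE 0.10, FDR 0.00167) and fell 1.42-fold in low glucose (-0.50, SE 0.13, FDR 0.00575). The calls of HG against LG and of both VPA comparisons held under all 15 alternatives run for each. Of its exon bases, 380 (5.966%) overlap a noncoding gene on the other strand, as do parts of the exons of ERN1, EIF2AK3 and PPP1R15B, and the strand setting of the counting is not given in the sources used here.

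For WFS1 the VPA effects in high and low glucose differed by 1.01 on the log2 scale (SE 0.17, 95% interval 0.65 to 1.36, FDR 0.0374 in the edgeR interaction test). It was alone among the 10 members in being called in that test and 1 of 7 genes called among 16389 (0.0427%). For ERN1, EIF2AK3, ATF6, ATF6B, XBP1, CREB3L3, PPP1R15A and PPP1R15B the differences between the VPA effects lay between -0.18 and 0.15, with FDR values from 0.778 to 0.998. The WFS1 difference stayed between 0.86 and 1.11 under 20 alternatives, of which 10 kept the call. The FDR was 0.0552 with library sizes alone, and without a single library it was 0.129 for LG replicate 1, 0.132, 0.0736 and 0.17 for HG replicates 1, 2 and 3, 0.159 and 0.119 for LGV replicates 2 and 3, and 0.097, 0.0744 and 0.0705 for HGV replicates 1, 2 and 3.

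**Figure D2:**
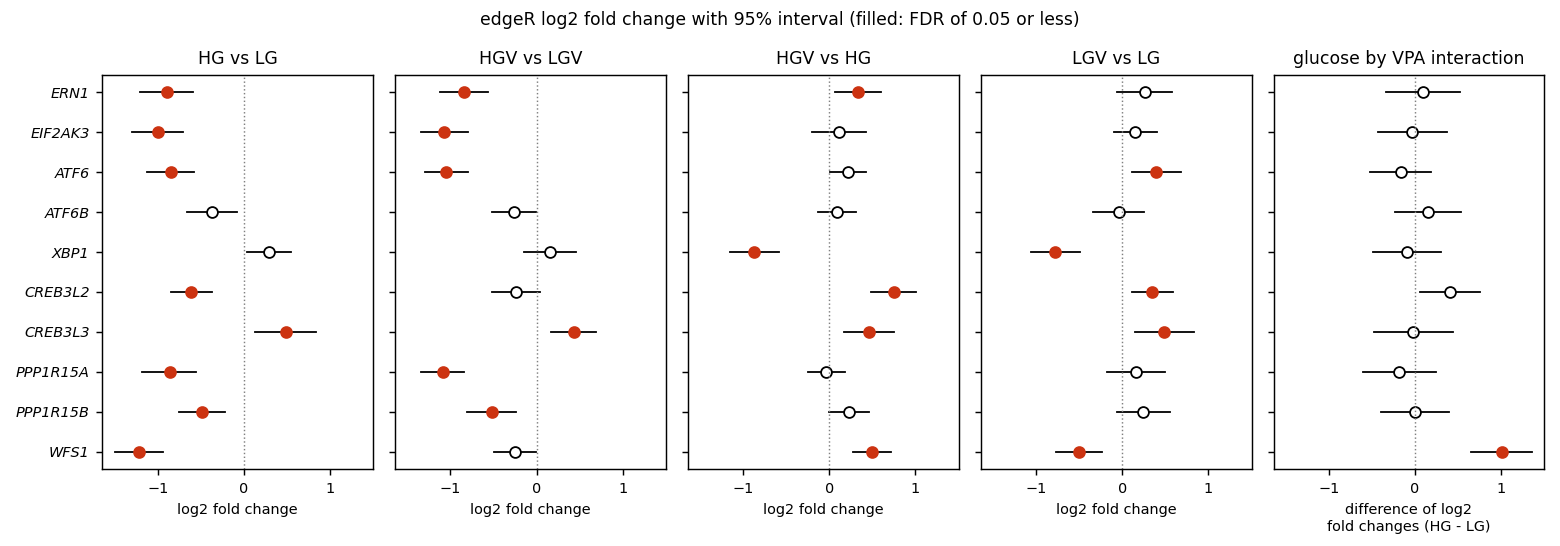
Log2 fold change (x axis) of each of the 10 genes (y axis) in the 4 comparisons of groups, and the difference between the VPA effect in high and in low glucose in the last panel, with bars for the 95% interval. Filled points had an FDR of 0.05 or less. The 3 sensors and PPP1R15A lie between -1.09 and -0.84 in both glucose panels, XBP1 lies at -0.88 and -0.78 in the VPA panels, and WFS1 stands alone at 1.01 in the last.

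Levels of different genes can be compared only per length. Dividing the LG CPM by the kilobases of merged exons (RPKM), XBP1 was the most abundant with 169.4 ± 9.91 RPKM (SD, n = 3). PPP1R15A (33.1 ± 8.76), WFS1 (26.9 ± 4.06) and CREB3L2 (26.2 ± 1.52) came next, with ranges that overlapped. ATF6B followed with 15.8 ± 2.75 RPKM and PPP1R15B with 11.2 ± 1.49 RPKM. ATF6 (9.18 ± 1.47), CREB3L3 (8.96 ± 2.09) and ERN1 (8.73 ± 2.01) could not be ordered by this length, since their ranges overlapped. The range of PPP1R15B (10.2 to 12.9 RPKM) overlapped those of CREB3L3 (7.12 to 11.2 RPKM) and ERN1 (6.47 to 10.3 RPKM). It began where that of ATF6 ended (10.2 RPKM), so PPP1R15B was not clearly set apart from these genes. EIF2AK3 was the lowest by it with 2.51 ± 0.267 RPKM. The length used mattered, because the merged exons of the sensors include long alternative parts. Reads were counted on an Ensembl annotation of GRCh37, while lengths were taken from a GENCODE annotation. The merged exons may thus hold parts that were not counted. With the longest transcript as the length, the level of EIF2AK3 was 11 ± 1.17 RPKM, above the 9.17 ± 2.14 RPKM of CREB3L3 although their ranges overlapped, and XBP1 was still the highest with 236.0 ± 13.8 RPKM. By that length ATF6 (14.3 to 19.5 RPKM) and ERN1 (13.7 to 21.9 RPKM) lay above CREB3L3 (7.29 to 11.5 RPKM).

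The members moved unequally, and ratios of read counts within a library, which no scaling between libraries affects, showed which pairs parted. The ratio's absolute size depends on gene length, so only its shift between groups is given. The 5 pairs were chosen after the values had been seen, so the p-values do not cover that choice and are no independent support. Each shift was tested with a two-sided exact permutation test within strata (400 arrangements, smallest p 0.005, 10 tests adjusted together). Log2 ATF6/ATF6B was 1.04, 1.60 and 0.94 in LG, 0.80, 0.72 and 0.62 in HG, 1.4, 1.95 and 1.55 in LGV and 0.81, 0.88 and 0.82 in HGV. It was lower in every high glucose library than in every low glucose library, with a mean shift of -0.64 over the 2 media with and without VPA (exact p = 0.005, adjusted 0.00833). Its shift with VPA was 0.28 (exact p = 0.075, adjusted 0.0938), which gave an unadjusted p of 0.005 without LG replicate 2 (0.39) and of 0.05 without HG replicate 1 (0.31). Log2 PPP1R15A/PPP1R15B had group means of 0.10 in LG, -0.26 in HG, 0.04 in LGV and -0.53 in HGV. The ratio was 0.62, -0.19 and -0.14 in the LG libraries and -0.38, -0.14 and -0.27 in the HG libraries, which overlapped. It shifted by -0.47 with glucose (exact p = 0.015, adjusted 0.0214), the inducible subunit falling more than the constitutive counterpart, and by -0.16 with VPA (exact p = 0.315, adjusted 0.35). With any single library left out, the glucose shift stayed between -0.54 and -0.33 (unadjusted exact p at most 0.035).

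CREB3L2 and CREB3L3 had log2 fold changes of opposite sign with glucose, -0.61 and 0.49 without VPA and -0.24 and 0.43 with it. The -0.24 of CREB3L2 was not called (FDR 0.162), and the call of CREB3L3 without VPA depended on single libraries. Log2 CREB3L2/CREB3L3 had group means of 3.3 ± 0.25 in LG, 2.20 ± 0.15 in HG, 3.15 ± 0.10 in LGV and 2.47 ± 0.14 in HGV (SD, n = 3). Its mean shift with glucose was -0.90 (exact permutation p = 0.005, adjusted 0.00833) and with VPA 0.06 (exact p = 0.635, adjusted 0.635). The ratio of XBP1 to its upstream sensor rose with glucose and fell with VPA. With glucose ERN1 was called lower (-0.89 without VPA and -0.84 with it), and XBP1 was not called (0.29 and 0.16). With VPA XBP1 was called lower (-0.88 in high and -0.78 in low glucose), and ERN1 was called higher in high glucose only (0.33). Log2 XBP1/ERN1 was 1.28, 1.54 and 2.11 in LG, 2.68, 2.78 and 2.93 in HG, 0.41, 0.78 and 0.54 in LGV and 1.38, 2.01 and 1.38 in HGV. It shifted by 1.08 with glucose and by -1.14 with VPA (exact permutation p = 0.005 and adjusted 0.00833 for each), so that HGV, with a mean of 1.59, came to lie beside LG with 1.64. Log2 XBP1/HSPA5 had group means of -3.33 in LG, -0.99 in HG, -4.16 in LGV and -1.71 in HGV. It shifted by 2.40 with glucose and by -0.77 with VPA (exact permutation p = 0.005 and adjusted 0.00833 for each). Because all these pairs were picked for values already seen, the p-values are no independent support.

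**Figure D3:**
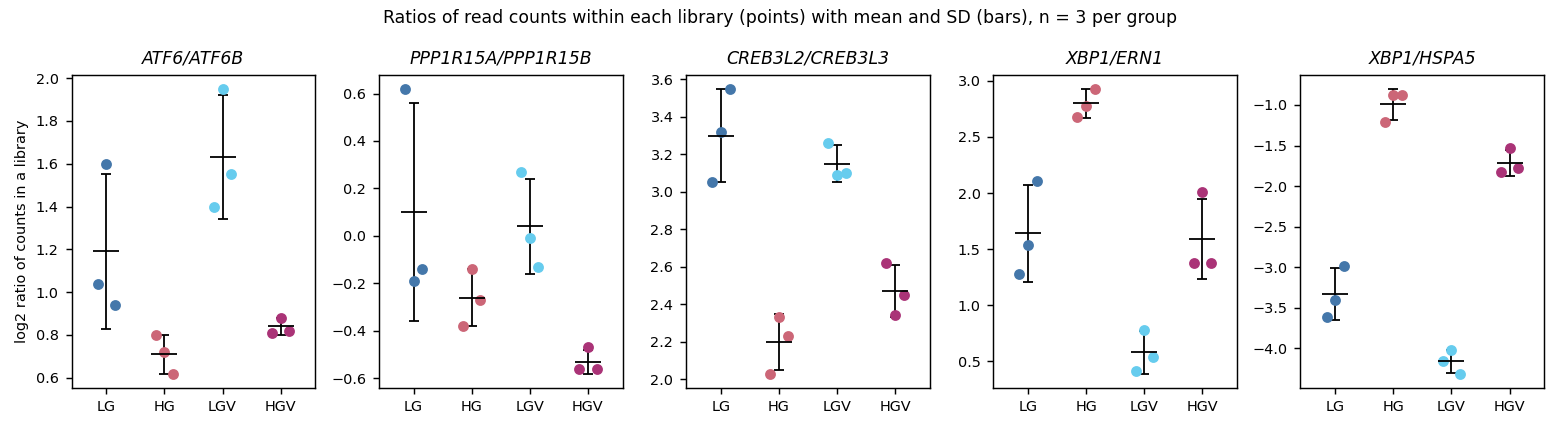
Log2 ratio of the read counts of a pair of genes within each library (y axis, with its own range for each pair, not starting at 0) in LG, HG, LGV and HGV. Points are the 3 libraries of a group and bars the mean with SD. XBP1/ERN1 is highest in HG (2.68 to 2.93) and lowest in LGV (0.41 to 0.78), and ATF6/ATF6B is at most 0.88 in all HG and HGV libraries and at least 0.94 in all LG and LGV libraries.

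Across the 12 libraries, the genes with the pattern most like that of a member were found by the root mean square difference of log2 CPM after centring each gene on its mean, among 16389 genes. ATF6 was nearest to OS9, which encodes an ER lectin of protein degradation (0.082), USP6NL (0.088) and RANBP9 (0.093). EIF2AK3 was nearest to the receptor kinase gene MET (0.105), USP6NL (0.112) and TTC14 (0.114). For ERN1 these were ARHGAP32 (0.131), the lipase gene DAGLA (0.139) and ATF6 itself (0.146). For XBP1 they were the interferon receptor gene IFNGR2 (0.096), PPP2R4 (0.113) and COPG2 (0.125), none of which was among the 3 nearest to a sensor.

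The known targets of the pathway fell with its sensors in high glucose. The list of these targets was made with earlier results of these data known, so its counts are no independent support. The paper had already reported HSPA5, MANF, CALR and DNAJB11 as lower in high glucose. All 22 of the effector targets in the table (of 23 listed) were called lower in HG, with log2 fold changes from -2.85 to -0.46 and a median of -1.62, where 12.7% of all genes were called lower. All 22 were also called lower in HGV against LGV (median -1.53), compared with 19.5% of all genes. SDF2L1, an ER chaperone cofactor, fell from 88.1 ± 21.4 to 12.0 ± 2.1 CPM (SD, n = 3), the secreted ER factor MANF from 308.9 ± 56.1 to 44.5 ± 4.58 CPM and the ER chaperone HYOU1 from 2167.3 ± 615.0 to 434.7 ± 10.1 CPM. In HGV against HG 6 of 22 rose and 3 fell (median -0.06), where 46.1% of all genes were called, and among them were SDF2L1 (0.83, SE 0.14, FDR 0.000433), the cochaperone DNAJB11 (0.81, SE 0.11, FDR 5.52e-05) and the ER degradation gene SEL1L (0.70, SE 0.13, FDR 0.000945), all higher. In low glucose 3 of 22 rose and 1 fell (median -0.07), where 41.6% of all genes were called. The sign of both small medians depended on the scaling, since with library sizes alone they were 0.06 and 0.09.

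The transcripts listed as PERK and ATF4 targets did not move as a block. Of these 16, which include ATF4 itself, 4 rose and 6 fell in HG (median 0.05), where 24.7% of all genes were called. With upper quartile factors or library sizes 5 rose and 3 fell. Whether PERK had a part in these changes was not tested. DDIT3, the gene of the stress factor CHOP, fell from 66.6 ± 33.5 to 20.1 ± 1.6 CPM (-1.70, SE 0.23, FDR 4.04e-05), TRIB3, a pseudokinase, fell from 878.7 ± 177.3 to 492.1 ± 57.2 CPM, and CHAC1, which degrades glutathione, rose from 1.88 ± 0.264 to 3.98 ± 0.591 CPM. With VPA 7 of 16 fell and 2 rose in high glucose (median -0.12), where 20.2% of all genes were called lower and 25.8% higher. In low glucose 9 fell and 1 rose (median -0.47, or -0.31 with library sizes alone, where 7 fell), and 19.9% of all genes were called lower and 21.7% higher. In HGV against HG the stress-induced regulator NUPR1 fell from 31.7 ± 5.1 to 3.99 ± 0.234 CPM (-2.99, SE 0.15, FDR 3.5e-08), the cysteine synthesis gene CTH by 1.09 and TRIB3 by 1.04 on the log2 scale. Of 14 genes of eIF2, its kinases other than PERK, its phosphatase and its exchange factor, 0 were called in HG against LG with edgeR, where 5 had an unadjusted p under 0.05, and 1 was called with the likelihood ratio test and 0 with DESeq2. In HGV against HG 4 of the 14 fell (20.2% of all genes were called lower), EIF2B4 (-0.56, SE 0.10, FDR 0.000511), EIF2S2 (-0.44) and EIF2B5 (-0.39) the most, and with library sizes alone 2 fell and 2 rose. The EIF2B5 call was lost with library sizes (FDR 0.0525) and without HG replicate 2 (0.0517) or 3 (0.052).

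Of 9 partners of IRE1, 2 fell in HG, where 24.7% of all genes were called, DAB2IP (-0.48, SE 0.13, FDR 0.0115) and RTCB, the ligase that joins spliced XBP1 mRNA (-0.35, SE 0.12, FDR 0.0445). The DAB2IP call was lost without LG replicate 1 (FDR 0.0698) or HG replicate 1 (0.0617) or 3 (0.0516). That of RTCB was lost with upper quartile factors (FDR 0.114), library sizes (0.1), no filter (0.0556) or a joint fit of the 12 libraries (0.0533), and without LG replicate 1 (0.122) or 2 (0.181) or HG replicate 1 (0.123), 2 (0.0941) or 3 (0.164). With VPA in high glucose 3 of the 9 were called, against 46.1% of all genes, and the apoptosis gene BAK1 (0.60) and the phosphatase gene PTPN1 (0.43) rose and RTCB fell (-0.28, SE 0.10, FDR 0.0399), a call lost with upper quartile factors (FDR 0.116), library sizes (0.184) or a joint fit of the 12 libraries (0.0725) and without HG replicate 2 (0.114) or 3 (0.133) or HGV replicate 1 (0.133) or 3 (0.123). Of 7 mRNAs known to be cut by IRE1 outside XBP1 splicing, 3 rose and 1 fell in HG, where 24.7% of all genes were called, PMP22 rising from 1.43 ± 0.21 to 4.54 ± 0.447 CPM, COL6A1 from 9.14 ± 0.535 to 17.3 ± 0.359 CPM and PDGFRB falling from 49.2 ± 10.3 to 23.7 ± 5.2 CPM. With VPA in high glucose 3 of these 7 rose and 2 fell, against 46.1% of all genes called, PMP22 rising further to 10.4 ± 2.89 CPM and HGSNAT falling from 30.9 ± 0.629 to 13.3 ± 1.2 CPM.

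The ATF6 list, made of its processing enzymes, its cofactors and other OASIS family genes, had 1 gene higher and 1 lower of 9 in HG, where 24.7% of all genes were called. CREB3L4 rose from 11.1 ± 3.26 to 16 ± 1.33 CPM (0.56, SE 0.20, FDR 0.0446), and MBTPS1, the protease that first cuts ATF6, fell from 281.8 ± 30.9 to 211.5 ± 0.798 CPM (-0.39, SE 0.12, FDR 0.0236). The CREB3L4 call was lost with a filter of 1 CPM (FDR 0.0518) and without LG replicate 1 (0.0856) or 2 (0.138) or HG replicate 1 (0.0696), 2 (0.0925) or 3 (0.138). That of MBTPS1 was lost with upper quartile factors (0.0615) or library sizes (0.051) and without LG replicate 1 (0.0968) or 2 (0.0917) or HG replicate 1 (0.0668), 2 (0.0717) or 3 (0.12). In HGV against HG 3 of 10 rose and 3 fell, where 46.1% of all genes were called. CREB3L1 was counted with at most 1 read in each HG library and reached 1.08 ± 0.327 CPM (SD, n = 3) in HGV, while CREB3L4 fell by 1.06 and NFYC, a subunit of the factor that binds CCAAT, by 0.99 on the log2 scale. In LG, CREB3L1 had 2 to 4 reads a library, and in LGV 2.2 ± 0.27 CPM.

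Of 8 genes listed as CREB3L3 targets, CRP and APCS were not in the table. In HG 3 of the other 6 rose and 1 fell (median 0.55), where 24.7% of all genes were called. HAMP, which encodes the iron hormone hepcidin, rose from 1.79 ± 2.06 to 6.96 ± 1.7 CPM and APOC2 from 1.68 ± 0.23 to 3.05 ± 0.318 CPM, and the hormone gene FGF21 fell from 1.61 ± 0.488 to 0.755 ± 0.0252 CPM. The HAMP call was lost with DESeq2's Wald test (FDR 0.105) and without LG replicate 1 (0.0671), and that of FGF21 without LG replicate 1 (0.0992) or 2 (0.0541) or HG replicate 1 (0.0574) or 3 (0.0775). With VPA in high glucose HAMP (to 16 ± 4.77 CPM) and the lipid droplet gene CIDEC (from 2.88 ± 0.51 to 7.37 ± 1.74 CPM) rose and APOA5 fell (from 36.9 ± 3.55 to 18.2 ± 3.63 CPM), 2 of 6 rising and 2 falling where 46.1% of all genes were called. In LGV against LG 1 of 6 fell and the other 5 were not called, where 41.6% of all genes were called and CREB3L3 itself was higher.

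Of 5 other ER calcium genes, examined beside WFS1, 3 fell in HG (median -0.61), where 12.7% of all genes were called lower, and 3 fell in HGV against LGV (median -0.44), where 19.5% were. ATP2A2, the ER calcium pump, fell from 771.5 ± 84.9 to 335.1 ± 4.09 CPM (-1.18, SE 0.12, FDR 2.31e-06), CISD2 from 25.1 ± 5.2 to 14.7 ± 0.979 CPM and the calcium channel gene ITPR3 from 112.7 ± 25.2 to 72.5 ± 10.8 CPM. The ITPR3 call was lost without LG replicate 1 (FDR 0.0739) or 2 (0.0542) or HG replicate 1 (0.064) or 3 (0.0706). With VPA in high glucose ITPR1 (1.18, SE 0.14, FDR 2.08e-05) and ITPR3 (0.76, SE 0.13, FDR 0.000386) rose, 3 of 5 being called against 46.1% of all genes, and ATP2A2 fell further (-0.33, SE 0.10, FDR 0.0217), a call lost with upper quartile factors (FDR 0.0651) or library sizes (0.12) and without HG replicate 2 (0.0708) or 3 (0.0721) or HGV replicate 3 (0.0878). In the interaction test 0 of the 89 list genes were called with edgeR, where 14 had an unadjusted p under 0.05, and 4 were called with the likelihood ratio test and 3 with DESeq2.

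**Figure D4:**
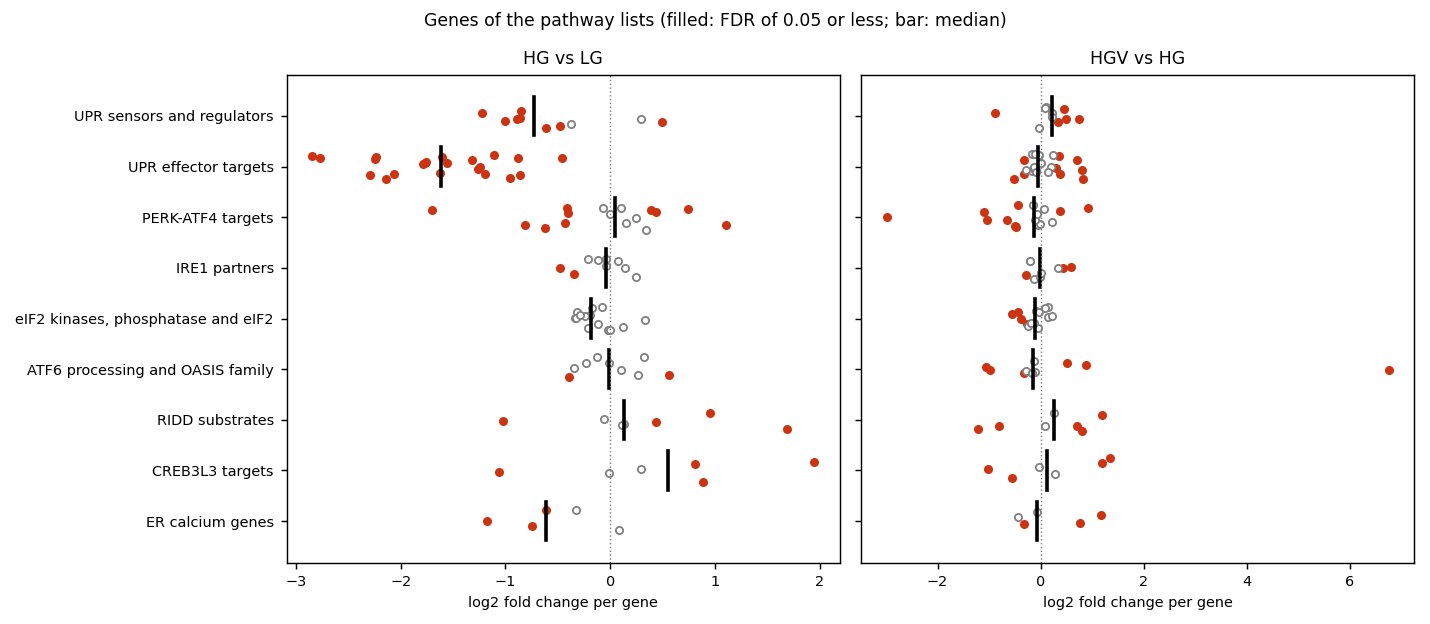
Log2 fold change (x axis) of each gene on 8 pathway lists and of the 10 sensors and regulators (y axis) in HG against LG and HGV against HG. Filled points had an FDR of 0.05 or less and bars are medians. All 22 effector targets lie left of 0 in HG against LG, with a median of -1.62 beside -0.73 for the sensors and regulators, and the point at the far right of HGV against HG is CREB3L1, which had at most 1 read in each HG library.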

How the data were processed

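The authors deposited raw read counts per gene, without normalization, for 12 poly(A)-selected HepG2 libraries. Per the labels, reads were made with bcl2fastq 2.17.1.14, aligned to GRCh37 with STAR and counted with featureCounts, and the methods add quality trimming, a mapping quality of 10 and the omission of genes averaging under 10 reads per sample (the lowest mean in the table was 10.0). Total counts ran from 29798442 to 45572694, which limits counting error to small shares of the member counts. The library kit keeps strand.

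Counts were normalized by TMM and compared with edgeR 4.0.16 (limma 3.58.1, R 4.3.3), fitting the quasi-likelihood F test to the libraries of each comparison over genes averaging 10 or more counts in them. The interaction of glucose and VPA used all 12 libraries. P-values were adjusted by the Benjamini-Hochberg method over all tested genes, and calls needed an FDR of 0.05 or less. The fits for HG against LG and for the interaction were run on simulated counts with the same dispersion for all genes. That setting does not copy the unequal spread of the groups. CPM are TMM-scaled, and the genes of like pattern were found on log2 CPM with a prior count of 2. Ratios, promoter searches and plots used Python 3.11.15 (numpy 2.4.6, pandas 2.3.3, matplotlib 3.10.9). Gene positions and exon lengths came from GENCODE annotation on GRCh37 and promoter sequence from RefSeq (GRCh38.p14).

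The members and the 8 gene lists (93 genes, 89 in the table) were chosen with earlier results of these data known, so a pattern among them is no independent support. DERL3 and MAP3K5, from the effector and the IRE1 lists, were not in the table. Named genes were the 10 members, the 3 list genes with the largest called change in HG against LG and in HGV against HG, and the 3 genes nearest in pattern to ERN1, EIF2AK3, ATF6 and XBP1. Libraries of the same replicate number in different groups had correlations of their deviations from the group means from -0.288 to 0.449 and were not paired. No 2 replicates agreed within sampling noise. Alternatives were DESeq2's size factors, upper quartile factors, library sizes, the likelihood ratio test, DESeq2's Wald test (version 1.42.0), no filter, 1 CPM in at least 3 libraries, a replicate block, a joint fit of the 12 libraries, an FDR of 0.01 and leaving out each library. The ratios were added after seeing the data.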

Additional observations from a re-analysis of the deposited data

Results flagged for a closer look

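The effect of VPA on WFS1 differed between the glucose levels. WFS1 rose with VPA in high glucose, by 0.49 on the log2 scale, and had a log2 fold change of -0.50 in low glucose, each of the 3 HGV libraries being above each HG library and each of the 3 LGV libraries below each LG library. The interaction term was 1.01 (SE 0.17, FDR 0.0374 in edgeR's test across 16389 genes). It stayed between 0.86 and 1.11 in every alternative run, of which 10 of 20 kept an FDR of 0.05 or less, the highest FDR being 0.17 without HG replicate 3.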

How the results depend on the processing

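No call of a member in HGV against LGV changed under any alternative, and in HG against LG those of ERN1, EIF2AK3, ATF6, CREB3L2, PPP1R15A and WFS1 held under all 15. Leaving out each library in turn left 6 to 8 members called in HG against LG, 3 to 6 in HGV against HG, 2 to 6 in LGV against LG, 6 in HGV against LGV and 0 to 1 in the interaction. At an FDR of 0.01 the counts were 3 in HGV against HG, 2 in LGV against LG and 0 in the interaction. With library sizes alone 8 members were called in LGV against LG, where 6458 of all 15944 genes were called. With that setting 0 members were called in the interaction, where 1 gene was called in all in place of 7. With the replicate block, the number of genes called was 3351 in place of 3813 for HG against LG, 8229 in place of 7456 for HGV against HG, 6971 in place of 6638 for LGV against LG, 7308 in place of 6604 for HGV against LGV and 13 in place of 7 for the interaction, and the block changed no call of a member (8, 5, 5, 6 and 1). Of the list genes named, it ended the calls of RTCB (-0.34, FDR 0.101) and MBTPS1 (-0.39, FDR 0.0586) in HG against LG. Of 3 libraries, 0, 1, 2 and 1 correlated best with their own number in these 4 comparisons of groups. List genes called in the interaction were 0, with 4 under the likelihood ratio test, 3 under DESeq2's Wald test and 0 to 4 with a library left out. With a library left out, list genes called were 33 to 51 in HG against LG, 31 to 43 in HGV against HG, 28 to 41 in LGV against LG and 45 to 59 in HGV against LGV.

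Changes of direction affected uncalled values near 0. The log2 fold change of PPP1R15A in HGV against HG was 0.023 with upper quartile factors and 0.085 with library sizes, in place of -0.04. That of ATF6B in LGV against LG was 0.040 with upper quartile factors and 0.12 with library sizes, and -0.16 to 0.085 with a library left out. With a library left out, the interaction term ranged from -0.075 to 0.27 for ERN1, -0.14 to 0.060 for EIF2AK3, -0.017 to 0.23 for ATF6B, -0.24 to 0.030 for XBP1, -0.23 to 0.13 for CREB3L3 and -0.15 to 0.066 for PPP1R15B, and the shift of CREB3L2/CREB3L3 with VPA from -0.01 to 0.12. The level per kilobase in LG with the length of the longest transcript was 18.5 RPKM for ERN1, 11 for EIF2AK3, 17.5 for ATF6, 21.8 for ATF6B, 236.0 for XBP1, 31 for CREB3L2, 19.9 for PPP1R15B and 46.8 for WFS1. With library sizes alone it was 154.7 RPKM for XBP1 and 23.9 for CREB3L2. The cause of these changes was not tested beyond the settings named.

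The main limits are the 3 libraries per group from a single cell line, counts that cannot show splicing of XBP1 or activity of the sensors, and calls close to the threshold in the VPA comparisons. Whether untreated cells were collected with the VPA-treated cells or 12 h earlier is not given in the sources used here, and time in culture and VPA then cannot be told apart.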
